A study of Homo sapiens with 6 samples.

Results

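Complex I of the respiratory chain (NADH:ubiquinone oxidoreductase) is encoded mostly by nuclear genes whose symbols start with NDUF, and their transcription and RNA levels were read in K562 cells, a human chronic myelogenous leukemia line. Members were all protein-coding genes with such a symbol among the transcripts counted in the libraries, which gave 48 genes out of 37192 genes matched to an annotation. They are represented by 49 transcription units (TUs), because NDUFAF6 has 2 counted transcripts. The rule used names only and no measured value. The study took untreated cells of 1 flask and made 2 PRO-seq libraries, which map engaged RNA polymerases through nascent RNA, and 4 RNA-seq libraries of rRNA-depleted total RNA. All libraries thus share 1 line, 1 culture and no treatment, and the comparison is between the assays. Counts on TUs lay between 5732780 and 9002746 per RNA-seq library and were 6993816 and 7245632 in the PRO-seq libraries.

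Complex I takes electrons from NADH, passes them along iron-sulfur clusters to ubiquinone and pumps protons across the inner mitochondrial membrane. It is built from a conserved set of core subunits, of which the nuclear ones sit in the arm that reaches into the matrix and the mitochondrially encoded ones in the membrane arm, and from many small accessory subunits around them. Assembly factors bind intermediates of the complex and are absent from the finished enzyme.

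Of the markers of K562 cells examined, GATA1, TAL1, KLF1, LMO2, NFE2, HBE1 and HBZ had RNA-seq levels between 13.2 and 3104 TPM (a level scaled by TU length and library depth). Markers of other lineages were below 1 TPM for MS4A1, CD3E, ALB and COL1A1, whereas CD3D was at 109 TPM and EPCAM at 120 TPM, and their part in the values of the members was not tested. Replicates 1 and 3 of the RNA-seq, and replicates 2 and 4, were closer to each other than the other pairs, with a chi-square per degree of freedom of 1.12 in both cases against 1.74 to 2.11 in the other 4 pairs. The spread between the libraries may therefore be partly technical, and with cells of 1 flask it holds none between cultures. P-values measure only this spread. Standard errors count the 4 RNA-seq libraries as separate, so they may be too small.

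The promoters of 4 members are shown because they mark the ends of the range found below, in transcription (NDUFB10 and NDUFB3) and in RNA half-life (NDUFA1 and NDUFAF5). Each is the 150 bases directly before the RefSeq start on GRCh38.p14, read 5′ to 3′ on the gene's strand, with matches to an ETS core (CCGGAAG) or an SP1 core (GGGCGG) on either strand in capitals. They lie at chr16:1959388-1959537, chr2:201071851-201072000, chrX:119871682-119871831 and chr20:13784878-13785027, all on the plus strand.
NDUFB10: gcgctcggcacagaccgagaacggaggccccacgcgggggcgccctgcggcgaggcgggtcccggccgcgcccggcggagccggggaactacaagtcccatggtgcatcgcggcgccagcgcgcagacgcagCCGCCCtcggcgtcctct
NDUFB3: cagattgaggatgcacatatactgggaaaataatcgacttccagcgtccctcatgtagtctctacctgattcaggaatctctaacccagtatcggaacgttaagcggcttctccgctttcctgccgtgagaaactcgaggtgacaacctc
NDUFA1: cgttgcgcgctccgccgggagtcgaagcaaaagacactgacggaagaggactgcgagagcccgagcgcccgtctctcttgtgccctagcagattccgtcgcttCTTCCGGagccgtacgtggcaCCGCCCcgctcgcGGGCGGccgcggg
NDUFAF5: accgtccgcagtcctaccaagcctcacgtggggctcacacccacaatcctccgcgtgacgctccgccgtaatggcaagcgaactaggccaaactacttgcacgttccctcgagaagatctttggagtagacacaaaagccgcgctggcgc
The NDUFA1 stretch held 1 ETS core and 2 SP1 cores and that of NDUFB10 held 1 SP1 core. Neither motif was in the 150 bases shown for NDUFB3 and NDUFAF5. In the windows of 250 bases before a start, used further below, NDUFB3 did have an SP1 core and NDUFAF5 had neither motif. The lack of an SP1 core for NDUFB3 thus holds only for the stretch shown. The G+C content was 78% for NDUFB10, 69.3% for NDUFA1, 59.3% for NDUFAF5 and 48.7% for NDUFB3.

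The question the assays pose together is how much of a gene's RNA level goes with its transcription and how much with RNA stability. Relative RNA half-life was taken as RNA-seq TPM over PRO-seq TPM, on a log2 scale centred on the median mRNA. At steady state, and where PRO-seq follows the transcription rate, this ratio is proportional to half-life and has no time unit. TPM is scaled within each assay, so a ratio of 1 is no mark of equal RNA and transcription. The paper states that PRO-seq signal also reflects elongation rate, whose part in the members' values was not tested. Per the paper, half-lives from these libraries were more variable and less close to published estimates than those from earlier data. Its main analyses rest on the earlier data. An estimate was made where the PRO-seq level passed 10 TPM and the RNA-seq level passed 1 TPM, and each TU was tested against the median mRNA with edgeR's quasi-likelihood test and Benjamini-Hochberg adjustment over all 9929 TUs. Since the ratio rises with any undercount of nascent RNA as with stability, it is a statement about the assays' counts on these TU models.

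Most members had more RNA than their transcription would give at the ratio of the median mRNA. Of the 39 members with an estimate, 37 lay above the median mRNA and 2 below, each past an adjusted p of 0.05. Over all TUs tested, 40.4% were called above and 50.0% below, and over the 8733 mRNAs these shares were 45.4% and 44.9%. The median log2 half-life of the members was 1.84, or 3.57-fold over the median mRNA, with quartiles of 1.22 and 2.92. It ranged from -1.44 for NDUFAF5 to 5.51 for NDUFA1, and 31 of the 39 lay above the upper quartile of mRNAs (1.08). The members stood out in RNA level more than in transcription. Their median was 149.8 TPM in RNA-seq against 31.2 TPM for all mRNAs, and 60.6 TPM in PRO-seq against 47.5 TPM.

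**Figure D1:**
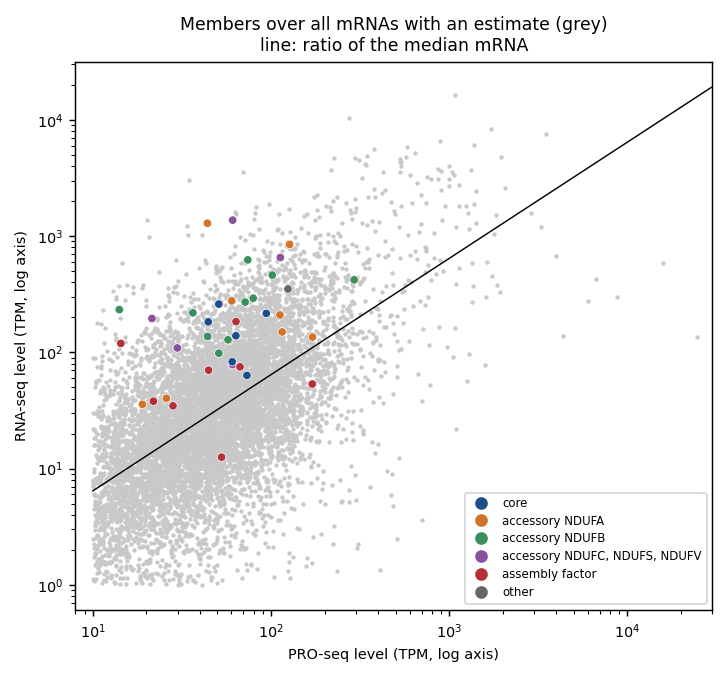
RNA-seq level against PRO-seq level (both TPM from summed counts, log axes) of the 39 members with an estimate, coloured by role, over all 8733 mRNAs with an estimate in grey. The line is the ratio of the median mRNA, and 37 members lie above it, with NDUFAF4 and NDUFAF5 below.

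**Figure D2:**
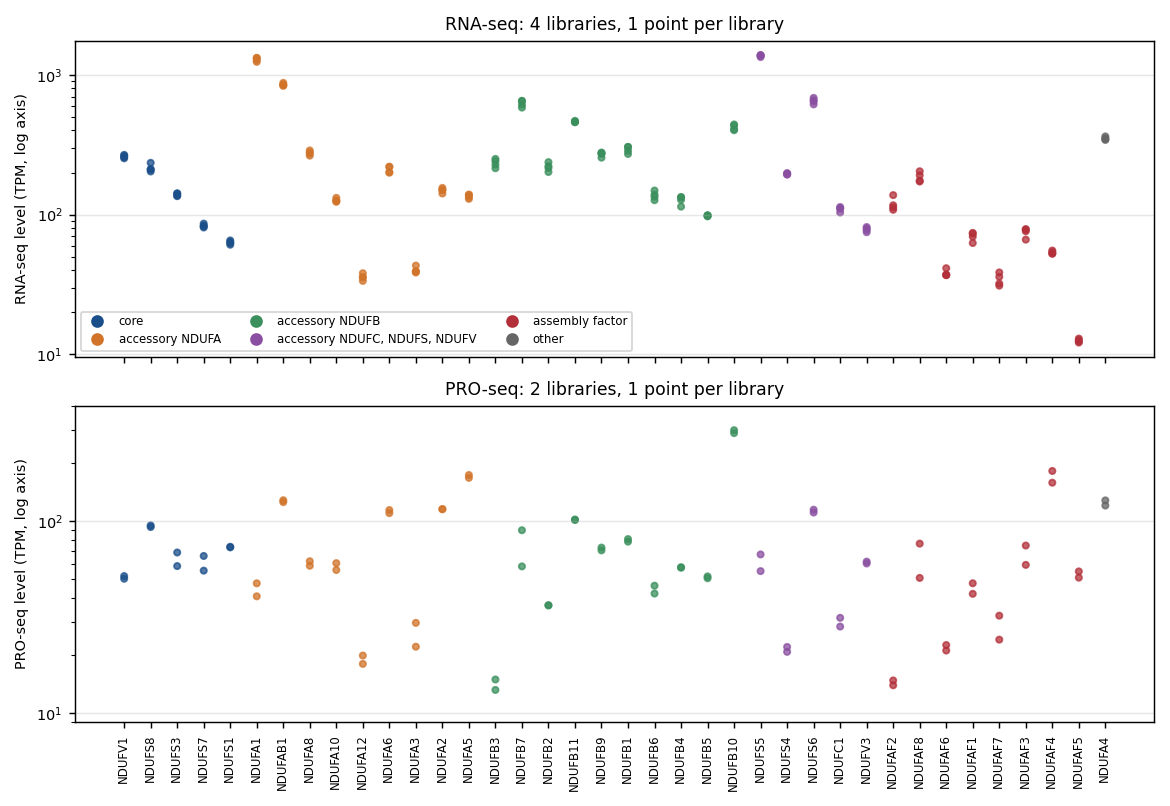
Level of 38 of the 39 members with an estimate in each library, in TPM on log axes, with 1 point per library (4 RNA-seq above, 2 PRO-seq below) and colours for the role. Points of 1 member lie close together next to the spread between members, from 12.5 TPM (NDUFAF5) to 1372 TPM (NDUFS5) in summed RNA-seq counts and from 14.1 TPM (NDUFB3) to 293 TPM (NDUFB10) in PRO-seq.

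The spread between replicates was small beside these differences. The replicate SD of log2 half-life, the root of the summed variances of log2 TPM within each assay, had a median of 0.098 over the 39 members and 0.126 over all mRNAs, against an SD of 1.46 between members. The largest replicate SDs were 0.449 for NDUFB7 and 0.435 for NDUFAF8. NDUFAF8 had only 13 and 20 PRO-seq counts, and fewer than 50 per library also stood behind NDUFA1, NDUFA3, NDUFB11 and NDUFAF3. RNA-seq levels differed between members more than PRO-seq levels did, with SDs of 1.48 and 0.98 on the log2 scale. Across the 39 members, Spearman's rho of RNA-seq and PRO-seq TPM was 0.39, and across the 8733 mRNAs it was 0.55. These are descriptions across genes, which share libraries and depth and are not independent replicates.

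The 5 core subunits whose estimates are described here all lay above the median mRNA. NDUFV1, which binds NADH and the flavin, was at 264, 258, 268 and 253 TPM in RNA-seq replicates 1 to 4 and at 51.8 and 50.1 TPM in PRO-seq replicates 1 and 2. Its log2 half-life was the highest of the core, 2.99 ± 0.029 (SE over 4 RNA-seq and 2 PRO-seq libraries, edgeR adjusted p = 1.76e-24).

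NDUFS8, a carrier of iron-sulfur clusters, was at 235, 209.9, 204 and 212 TPM in RNA-seq and at 95.0 and 93.2 TPM in PRO-seq, the highest transcription of the core. NDUFS3, a subunit of the matrix arm, was at 142, 137, 141 and 136 TPM in RNA-seq and 58.4 and 68.7 TPM in PRO-seq. Their log2 half-lives were 1.84 ± 0.047 and 1.77 ± 0.12. The counted NDUFS3 transcript is 1.98 times as long as the canonical one, and with only exon bases of the canonical transcript as the length, a setting chosen after seeing the data, the values were 1.68 and 2.87. Here and below, this setting kept all reads of the counted transcript and could only shorten its RNA-seq length. The PRO-seq window stayed that of the counted transcript. For NDUFS3, PTPMT1 covers part of the PRO-seq window on the same strand, and 62.3% of the window was free of other TUs.

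NDUFS7, which holds the last iron-sulfur cluster before ubiquinone, was at 83.1, 82.6, 86.3 and 80.9 TPM in RNA-seq and 55.2 and 65.9 TPM in PRO-seq, a log2 half-life of 1.09 ± 0.13. Its counted transcript is a retained-intron model 4.08 times as long as the canonical one, and with canonical exon bases the value was 2.97. NDUFS1, the largest core subunit, was at 62.6, 65.4, 60.9 and 63.8 TPM in RNA-seq and 73.6 and 73.0 TPM in PRO-seq. It was the core subunit with the lowest log2 half-life, 0.43 ± 0.022 (edgeR adjusted p = 1.08e-09). All 4 of its RNA-seq values were under both PRO-seq values, and it lay above the median mRNA because the latter had a log2 ratio of -0.64. Against a ratio of 1 in place of the median mRNA, NDUFS1 fell below, at -0.21, but that ratio depends on the scaling of each assay. The counted transcript of NDUFS1 holds 11660 exon bases, the most of any member.

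NDUFV2, a further core subunit with an iron-sulfur cluster, had 2911, 3138, 1993 and 2382 RNA-seq counts, at 873, 892, 890.4 and 927 TPM, but 2 and 1 PRO-seq counts. A lncRNA gene (ENSG00000265257) covers its PRO-seq window on the same strand, leaving 0.121% of the bases free, and no half-life was given.

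**Figure D3:**
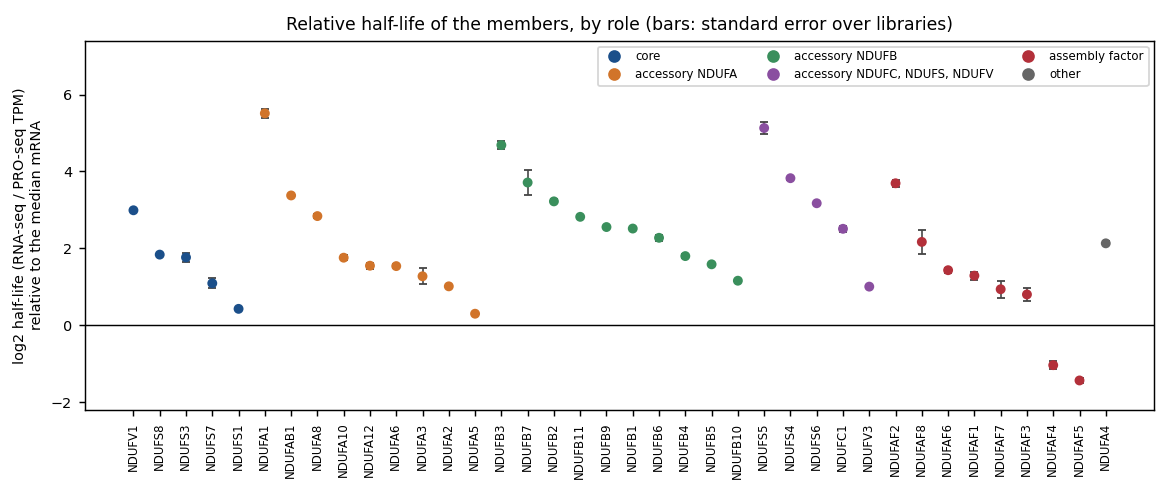
Log2 half-life relative to the median mRNA (the line at 0) for 38 of the 39 members with an estimate, grouped by role, with bars for the standard error over 4 RNA-seq and 2 PRO-seq libraries. All subunits shown lie above 0, from 0.30 (NDUFA5) to 5.51 (NDUFA1), and the 2 members below 0 are assembly factors.

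The accessory NDUFA subunits had a median log2 half-life of 1.55, with 9 of 9 above the median mRNA, and spanned the widest range of the subunit groups. NDUFA1, a small membrane-anchored subunit encoded on chromosome X, was at 1324, 1275, 1320.5 and 1239 TPM in RNA-seq and at only 47.4 and 40.6 TPM in PRO-seq. NDUFAB1, the mitochondrial acyl carrier protein, was at 847, 834, 877 and 848 TPM in RNA-seq and 126 and 129 TPM in PRO-seq. Both were among the members with the most RNA, but NDUFAB1 had more transcription, and the log2 half-lives were 5.51 ± 0.11 and 3.38 ± 0.022. With canonical exon bases NDUFA12 (4.70) passed NDUFAB1 (3.23). The estimate for NDUFA1 rests on 47 and 41 PRO-seq counts.

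At the low end of the group were subunits with transcription near that of NDUFAB1. NDUFA2, a subunit of the matrix arm, was at 155, 149.7, 142 and 150.0 TPM in RNA-seq and 115 and 116 TPM in PRO-seq. NDUFA5, also in the matrix arm, was at 133, 138, 129.6 and 139 TPM in RNA-seq and 174 and 168 TPM in PRO-seq. NDUFA2 had a log2 half-life of 1.01 ± 0.028 and NDUFA5 one of 0.30 ± 0.034 (edgeR adjusted p = 9.57e-07), the lowest of all subunits. The counted NDUFA2 transcript holds only 9.09% of the canonical bases, and with canonical exon bases NDUFA2 had no value. Against a ratio of 1, NDUFA5 was below, at -0.34. The other 5 members of the group with an estimate (NDUFA3, NDUFA6, NDUFA8, NDUFA10 and NDUFA12) lay between 1.27 and 2.84.

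The accessory NDUFB subunits, which belong to the membrane arm, had a median log2 half-life of 2.54, with 10 of 10 above the median mRNA. NDUFB3 was at 242, 228, 250.5 and 215 TPM in RNA-seq and 13.2 and 15.0 TPM in PRO-seq, the lowest transcription of all members with an estimate. NDUFB7, a subunit on the intermembrane-space side, was at 652, 613, 649 and 583 TPM in RNA-seq and 58.1 and 89.7 TPM in PRO-seq. On the counted transcripts they had the highest log2 half-lives of the group, 4.69 ± 0.10 and 3.71 ± 0.32. With canonical exon bases NDUFB3 was at 5.44, and NDUFB2 (5.19) and NDUFB9 (4.13) passed NDUFB7 (3.56). Only the RNA-seq length differs in that setting, and the PRO-seq window does not, so this is not a corrected order. The counted transcripts of NDUFB2 and NDUFB9 are 3.58 and 2.26 times as long as the canonical ones. The wide error of NDUFB7 came with PRO-seq counts of 75 and 118.

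NDUFB10, another subunit facing the intermembrane space, had the most transcription of all members. It was at 288 and 298 TPM in PRO-seq and 434, 408, 442 and 402 TPM in RNA-seq, which gave the lowest log2 half-life of the group, 1.16 ± 0.042 (edgeR adjusted p = 1.28e-12). NDUFB5 was at 98.9, 98.6, 97.2 and 98.4 TPM in RNA-seq and 50.4 and 51.5 TPM in PRO-seq, a log2 half-life of 1.59 ± 0.017. With 500 bp in place of 1000 bp removed for PRO-seq, NDUFB10 was at 1.54 and NDUFB5 at 1.57. Set side by side from summed counts, NDUFB3 and NDUFB10 were far apart in PRO-seq (14.1 and 293 TPM) and nearer to each other in RNA-seq (233 and 421 TPM). The other 6 members (NDUFB1, NDUFB2, NDUFB4, NDUFB6, NDUFB9 and NDUFB11) lay between 1.80 and 3.22.

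Among the accessory NDUFC, NDUFS and NDUFV subunits, 5 of 5 lay above the median mRNA, and their median of 3.17 was the highest of the roles with more than 1 member. NDUFS5, on the intermembrane-space face, had the most RNA of all members, 1385, 1381, 1374 and 1341 TPM, from 67.1 and 54.9 TPM in PRO-seq. NDUFS4, a matrix arm subunit mutated in Leigh syndrome, was at 193, 198, 195 and 197 TPM in RNA-seq and 22.1 and 20.9 TPM in PRO-seq. The log2 half-lives were 5.13 ± 0.14 and 3.83 ± 0.043. NDUFS4 thus had few nascent reads per length, with an RNA level above that of 90.4% of mRNAs with an estimate.

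NDUFC1, a short membrane subunit, was at 104, 110.2, 113 and 111 TPM in RNA-seq and 28.2 and 31.4 TPM in PRO-seq, with a log2 half-life of 2.51 ± 0.081. MGARP covers part of its PRO-seq window, of which 55.8% was free. NDUFV3, in the matrix arm, was at 77.6, 81.5, 79.6 and 74.8 TPM in RNA-seq and 60.2 and 61.6 TPM in PRO-seq. At 1.00 ± 0.031, it had the lowest log2 half-life of the group, and NDUFS6 lay in between at 3.17.

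The assembly factors were the only role with members below the median mRNA, with 6 of 8 above, 2 below and a median log2 half-life of 1.11. The difference between roles was not tested. NDUFAF5, an enzyme that modifies NDUFS7, was at 12.4, 12.7, 12.2 and 13.0 TPM in RNA-seq, the lowest of the members with an estimate, and at 50.8 and 54.7 TPM in PRO-seq. NDUFAF4, which acts in assembly of the matrix arm together with NDUFAF3, was at 52.6, 52.6, 55.4 and 53.9 TPM in RNA-seq and 183 and 159 TPM in PRO-seq. Both had all RNA-seq values under both PRO-seq values, and log2 half-lives of -1.44 ± 0.058 and -1.04 ± 0.10 (edgeR adjusted p = 9.50e-18 and 1.52e-13). In a test for a difference of over 2-fold, NDUFAF4 was no longer called (edgeR adjusted p = 0.247).

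At the other end, NDUFAF2, a paralog of NDUFA12, was at 138, 108, 113 and 117 TPM in RNA-seq and 14.8 and 13.96 TPM in PRO-seq, a log2 half-life of 3.69 ± 0.087. NDUFAF8, the partner protein of NDUFAF5, was at 172, 175, 191 and 204 TPM in RNA-seq and 50.6 and 76.4 TPM in PRO-seq. Its log2 half-life of 2.17 ± 0.30 set it apart from its partner, with similar transcription and more RNA. With 500 bp in place of 1000 bp removed for PRO-seq, the value of NDUFAF8 was 2.71. The other 4 factors (NDUFAF1, NDUFAF3, NDUFAF6 and NDUFAF7) lay between 0.80 and 1.43. NDUFA4, once counted to complex I and now known as a subunit of cytochrome c oxidase, was at 343, 353, 346 and 363 TPM in RNA-seq and 121 and 128 TPM in PRO-seq, with a log2 half-life of 2.13 ± 0.048.

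In all, 9 of the 48 genes and the second NDUFAF6 transcript had no estimate, and for 8 of these 10 TUs under 5% of the PRO-seq window was free of other TUs on the same strand. NDUFA7, NDUFA9, NDUFA11 and NDUFA13 had 0 PRO-seq counts in both libraries, where a count of 0 allows up to 3 counts per library. NDUFB8 had 2 and 1 PRO-seq counts and NDUFC2 had 1 and 1. The RNA of some was plentiful. NDUFB8, a membrane arm subunit, was at 75.7, 66.3, 75.2 and 70.7 TPM and NDUFC2 was at 84.3, 81.1, 85.8 and 87.6 TPM in RNA-seq. NDUFA9, a matrix arm subunit, was at 8.92, 7.90, 8.66 and 8.19 TPM.

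NDUFA7 had 10, 6, 2 and 3 RNA-seq counts, NDUFA13 had 12, 14, 3 and 8, and NDUFA11 had 18, 19, 17 and 8. Their exons also lie in part under another TU on the same strand, in 452 of 569 bases for NDUFA7, 457 of 825 for NDUFA13 and 391 of 2406 for NDUFA11, and so do 397 of 713 exon bases of NDUFB8 and 976 of 8356 of NDUFA9. Low RNA levels and reads left out for overlap cannot be told apart in these counts. The TUs over these windows are protein-coding genes, known by identifier only for NDUFA7 (ENSG00000167774), NDUFA9 (ENSG00000272921 and ENSG00000255639), NDUFA11 (ENSG00000267740), NDUFA13 (ENSG00000258674) and NDUFB8 (ENSG00000255339), and NDUFC2-KCTD14 for NDUFC2. The second NDUFAF6 transcript, which lies under the first, had 7, 6, 1 and 5 RNA-seq counts and 0 PRO-seq counts. HTSeq in its default mode leaves out reads that fall on more than 1 TU, and the mode used is not stated.

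Low PRO-seq counts went with same-strand overlap across all mRNAs. Of 129 mRNAs whose PRO-seq window lay wholly under another TU on the same strand, 95.3% had 10 PRO-seq counts or fewer, against 0 of 201 mRNAs that lay wholly under a TU on the other strand only and 12 of 5107 with a free window. These were mRNAs with more than 200 RNA-seq counts and a span over 3000 bp. Under 5% of the window was free in 16.3% of the 49 member TUs and in 5.84% of 18964 mRNA TUs.

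The remaining members without an estimate were not covered in this way. NDUFA4L2, a paralog of NDUFA4 known to be induced in hypoxia, had 4, 6, 3 and 3 RNA-seq counts and 7 and 10 PRO-seq counts, which put it under both thresholds. NDUFC2-KCTD14, a readthrough gene over NDUFC2 and KCTD14, had 0 RNA-seq counts in all 4 libraries and 325 and 342 PRO-seq counts. None of its exon bases was free of the TUs of NDUFC2 and KCTD14.

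Members with short counted transcripts had the higher half-lives. Spearman's rho of log2 half-life and exon length was -0.61 over the 39 members and -0.33 over the 8733 mRNAs, whereas rho with the span of the gene was -0.07 for the members and 0.03 for mRNAs. Of members with under 1000 exon bp, 20 of 20 lay above the median mRNA, with a median of 2.67, where 66.2% of all mRNAs of such length were called above and their median was 1.34. Of members with 1000 exon bp or more, 17 of 19 lay above, with a median of 1.54, against 43.2% of mRNAs of that length and a median of -0.08. Exon length is also a divisor of RNA-seq TPM, and its part in the relation was not tested.

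**Figure D4:**
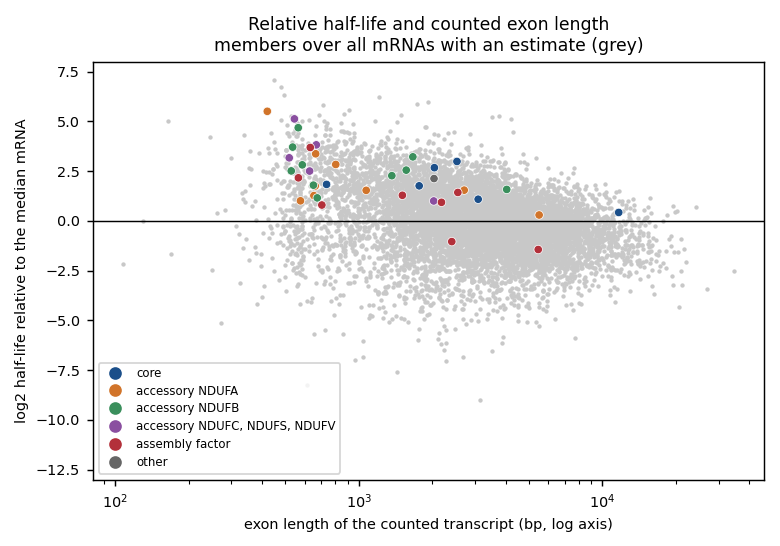
Log2 half-life relative to the median mRNA against the exon length of the counted transcript (bp, log axis) for the 39 members with an estimate, coloured by role, over all mRNAs with an estimate in grey. The members lean downwards from NDUFA1 with 421 bp at 5.51 to NDUFS1 with 11660 bp at 0.43.

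The TU model also matters for a part of the members. The counted transcript held under 80% of the bases of the canonical transcript in 9 members with an estimate, among them NDUFA10 (6.06%), NDUFA2 (9.09%), NDUFV3 (25.5%), NDUFA3 (37.6%), NDUFC1 (38.5%) and NDUFB3 (60.6%). These 9 had a median log2 half-life of 1.55, and without them the median was 2.15, with 28 members above the median mRNA and 2 below. With canonical exon bases as the length, the median was 2.69, and 9 of 37 members moved by over 1.5-fold, all upwards. These were NDUFA3, NDUFA10, NDUFA12, NDUFB2, NDUFB3, NDUFB9, NDUFC1, NDUFS3 and NDUFS7, so the order of members within a role changed with the length used. All reads of the counted transcript were kept in this setting, and the length could shrink but not grow. Moves of this size could thus only be upwards, and their direction says nothing about the members. Reads from processed copies could add to some members, since 21 of them have at least 1 annotated pseudogene, with 12 each for NDUFA5 and NDUFB4. Reads shared with such copies could also be missing from the counts. Records without a unique alignment were set aside, at 24.5% to 28.0% in RNA-seq against 2.79% and 2.73% in PRO-seq. Their part in the members' values was not tested.

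The other genes of oxidative phosphorylation were also mostly above the median mRNA. Of 30 genes of complex III, complex IV and ATP synthase with an estimate, 28 lay above the median mRNA and 1 below, with a median log2 half-life of 2.92. Among these, UQCRH of complex III had the highest, 4.44, and UQCRFS1, the Rieske iron-sulfur protein, was below at -0.56. In complex II, SDHB was at 3.40 and SDHC at 0.40, and SDHA and SDHD had no estimate. Of complex I assembly genes without an NDUF symbol, 7 of 9 lay above and 1 below, with a median of 0.75. TMEM126B (3.05) and TIMMDC1 (2.06), which help to build the membrane arm, were the highest, and TMEM242 (-0.76) was below.

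As a reference for abundant housekeeping RNAs, 55 of 66 mitochondrial ribosomal protein genes were above, with a median of 1.56, and 63 of 76 cytosolic ribosomal protein genes, with a median of 2.40. The median of the members lay between those of these lists, and whether they differ from either was not tested.

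**Figure D5:**
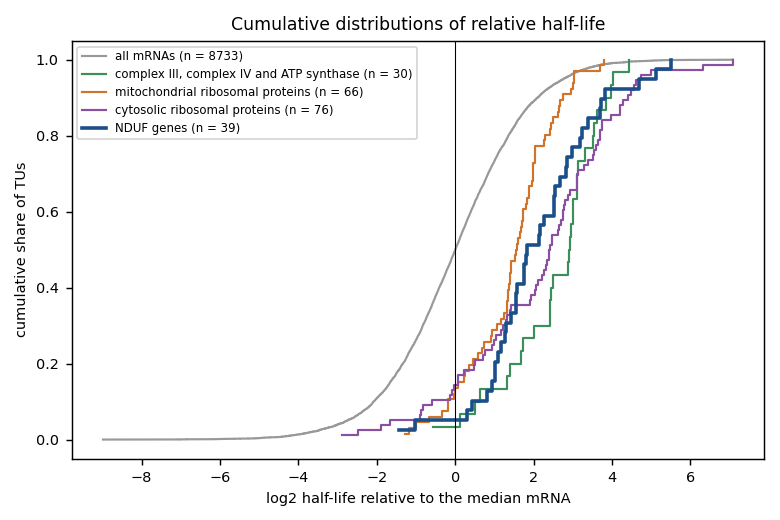
Cumulative share of TUs by log2 half-life relative to the median mRNA, for the 39 NDUF genes, 30 genes of complex III, complex IV and ATP synthase, 66 mitochondrial and 76 cytosolic ribosomal protein genes, and all 8733 mRNAs. The NDUF curve lies to the right of that of all mRNAs, with medians of 1.84 and 0.

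The mitochondrially encoded core subunits had the opposite sign. MT-ND4, MT-ND5 and MT-ND2 were at 428, 278 and 137 TPM in RNA-seq and at 6637, 6000.0 and 24668 TPM in PRO-seq, and their log2 half-lives were -3.32, -3.79 and -6.86 (all below the median mRNA, with edgeR adjusted p = 8.78e-26, 4.46e-29 and 6.79e-27). Only 378, 812 and 42 bp of these short genes remained as PRO-seq window, and the part of this in the values was not tested. The other mitochondrially encoded subunits were not analysed here.

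In the promoters, 40 of the 48 genes matched RefSeq windows on GRCh38.p14, with 52 windows of 250 bases before a start. Among those that did not match were NDUFA4, NDUFA4L2, NDUFAF6, NDUFB5, NDUFB9, NDUFC2 and NDUFS5. The SP1 core GGGCGG was found on either strand in 61.5% of the member windows and 42.6% of all 35116 windows, and the ETS core CCGGAAG, the site of GABPA, in 13.5% and 8.52%. The centre of the NRF1 palindrome, CGCATGCG, was in 4 member windows (NDUFA5, NDUFB4, NDUFS6 and NDUFS7), or 7.69%, against 1.73% of all windows. CCAAT was in 26.9% and 32.0%, and TATAAA in 5.77% and 10.7%. A match is a stretch of letters and not a bound site, and several windows can belong to 1 gene. The median G+C content was 60.8% in the member windows and 58.0% in all.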

How the data were processed

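Nascent RNA (PRO-seq, 2 libraries) and total RNA (RNA-seq after rRNA depletion, 4 libraries) were measured in K562 cells. The authors deposited raw counts per transcript for each library, without normalization. Per the study's methods and the submitters' processing notes, Cutadapt served to trim the reads, HISAT2 to align them to GRCh38 and HTSeq to count them, with the outer 500 bp of TUs omitted on both sides in PRO-seq. The sources used here give neither tool versions nor a strand setting.

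Of 42371 transcripts, 37339 were matched by identifier to GENCODE release 44 lifted to GRCh37, which gave symbols, lengths and overlaps. Lengths may therefore differ from those counted on, and no coordinates were converted. Rows that name no TU were left out (66.5% to 68.6% of RNA-seq records, 86.5% and 88.6% in PRO-seq). PRO-seq labels mention 500 bp but not on which side, and they name the longest transcript where the methods name the most abundant.

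TPM was computed from counts summed over replicates, dividing RNA-seq counts by exon length and PRO-seq counts by the span minus 1000 bp. Each TU was tested by the quasi-likelihood test of edgeR 4.0.16 in R 4.3.3, with TMM normalization, offsets for length and a shift to the median mRNA, with Benjamini-Hochberg adjustment over 9929 TUs of mRNAs, lincRNAs, antisense genes and pseudogenes. The fit was tested on simulated data, where 90% of 200 TUs changed by a log2 of 1 were recovered, with 8 false calls. The simulated libraries were independent with a fixed dispersion, so they do not cover the close RNA-seq pairs. Alternatives were DESeq2 (version 1.42.0), other centring, thresholds, lengths, a 2-fold test, a replicate block and each library left out. Other steps used Python 3.11.15.

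The members, gene lists and tests were chosen with earlier results of these data known. Values by library are given for the core subunits, for the 2 highest and 2 lowest members by log2 half-life in each other role, and for members without an estimate, and the rest by range. The values of 1 member are not reported here. The depth of a value is the count behind it, and counting error is only part of the spread. Same-numbered libraries of the assays were checked for pairing by the correlation of their differences, and nothing in the labels ties them.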

Additional observations from a re-analysis of the deposited data

Results flagged for a closer look

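Of 39 members tested by Dixon's criterion on log2 TPM over the 4 RNA-seq libraries, 2 had a library set apart from the others, and chance alone marks about 1 in 20 groups. NDUFA3 was highest in replicate 2, with a gap of 0.832 of the whole range, at 43.2 TPM against 38.5 to 39.3 TPM in the other libraries. NDUFAF6 was highest in replicate 4, with a gap of 0.922 of the range, at 41.4 TPM against 36.9 to 37.2 TPM.

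Genes named after members but not coding for protein also had counts above 3 when summed over the libraries of an assay. NDUFA6-DT, which is divergent from NDUFA6, had 352 PRO-seq and 40 RNA-seq counts over all libraries, and NDUFV1-DT had 10 PRO-seq counts. NDUFV2-AS1, antisense to NDUFV2, had 184 PRO-seq and 18 RNA-seq counts, with 11 of the latter in replicate 1. NDUFB2-AS1 had 31 PRO-seq and 23 RNA-seq counts. Both antisense genes lay below the median mRNA in log2 half-life, at -3.34 ± 0.66 and -5.65 ± 0.26 (SE, edgeR adjusted p = 2.54e-11 and 1.81e-12), and without a stated strand setting their values are uncertain. Each passed the RNA level threshold of 1 TPM through 1 library. Without RNA-seq replicate 1 NDUFV2-AS1 was at 0.842 TPM, and without RNA-seq replicate 4 NDUFB2-AS1 was at 0.858 TPM, both under it (a setting chosen after seeing the data). The processed pseudogene NDUFA9P1 had 9 RNA-seq counts, with 1, 4, 2 and 2 in replicates 1 to 4.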

How the results depend on the processing

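The counts of 37 members above and 2 below the median mRNA were the same with DESeq2, with its size factors, with 500 bp removed for PRO-seq, with each of the 6 libraries left out (37 above and 2 below in each case) and with the close RNA-seq pairs summed, a setting chosen after seeing the data. With the replicate block they were also 37 and 2, but RNA-seq replicates 3 and 4 have no PRO-seq library of their number and add nothing to that contrast. The SD of the differences between same-numbered libraries, for replicates 1 and 2 only, had a median of 0.095. The numbers share no animal, donor or batch in the labels, and the correlation of the replicate differences of the assays was -0.016 over 9874 TUs. Against a TPM ratio of 1, members were 34 above and 4 below, and all TUs 2693 above and 6464 below in place of 4010 and 4961. NDUFS1 (-0.21) and NDUFA5 (-0.34) were then below, and NDUFAF3 was not called. In the 2-fold test, members were 30 above and 1 below, and all TUs 2138 and 2898. With at least 1 summed count they were 40 and 3, and all TUs 6634 and 7596. The members that entered there were NDUFV2, NDUFB8, NDUFC2 and NDUFA4L2, none with a half-life above. NDUFV2, NDUFB8 and NDUFC2 had 2 and 1, 2 and 1, and 1 and 1 PRO-seq counts. Under 5% of their PRO-seq windows was free of other TUs. Of 658 values of single members under the alternatives, 647 kept their direction and side of the threshold, 9 lost the call and 2 changed direction. The latter were NDUFS1 and NDUFA5 against a ratio of 1, which depends on the scaling of each assay.

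The median of 1.84 was 2.76 with at least 1 summed count, where the log2 ratio of the median mRNA fell from -0.64 to -1.27 and 4 members entered (the 39 alone had 2.47), and 2.07 when centred on all TUs. It was 2.02 with only bases free of other TUs, 2.69 with canonical exon bases and 2.15 without members under 80% canonical, all chosen after seeing the data. The setting with canonical exon bases kept all reads and the PRO-seq window, and could only shorten the RNA-seq length. With a library left out the median was 1.78 to 1.87, and with an RNA-seq library left out the replicate SD was 0.090 to 0.113. Depth limits NDUFAF8 and other members with few PRO-seq counts, and cells of 1 flask give no spread between cultures.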
